A study of Mus musculus with 12 samples.

Results

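The genes named for proteasome subunits, their assembly chaperones and their regulators were followed in skeletal muscle of C57Bl/6 mice through 2 lengths of high-fat feeding. Members were chosen by symbol: every probe set whose only gene symbol began with Psma to Psmg and a number was taken, which gave 103 probe sets for 49 of the 18193 genes measured, and the probe set of highest mean signal across the 12 arrays stood for each gene. Of the members, 27 had more than 1 probe set, and the other 54 probe sets served as a check. All groups were C57Bl/6 mice kept on chow until 6 weeks of age. The feed of the high-fat groups held 46% of its calories as fat; 4 samples were taken after 5 days on it and 4 after 42 days. The chow group of 4 samples remained on feed with 13% of calories as fat and is the control for either time. The labels give neither the muscle, the sex, how old chow mice were when sampled nor whether each array stands for 1 animal, so p-values measure the spread between these samples, which may be technical in part, and diet time and age cannot be told apart between the 42-day and 5-day groups.

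The proteasome is the protease that degrades most ubiquitin-tagged proteins. Its 20S core is a barrel of alpha and beta rings with the active sites inside, and the 19S regulatory particle that caps the barrel binds ubiquitin chains, removes them, unfolds the substrate with a ring of ATPases and feeds it into the core. In muscle this pathway is known for the breakdown of contractile proteins during fasting and disuse, and interferon can replace the active-site beta subunits by those of the immunoproteasome, which favours peptides for display on class I molecules.

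By role the 49 members were 7 alpha-ring subunits, 4 beta subunits without an active site, 3 constitutive active-site subunits, 3 immunoproteasome subunits, 6 base ATPases, 3 base scaffold and ubiquitin-receptor subunits, 8 lid subunits, 3 chaperones of 19S assembly, 4 chaperones of 20S assembly, 3 activators and 1 inhibitor. The symbol rule also took 2 core subunits known from other tissues, Psma8 of the testis and Psmb11 of the thymus, and 2 genes that encode interacting proteins and no subunit, Psmc3ip and Psme3ip1. Psme2, the partner of Psme1 in the PA28 activator, was read by a probe set that also carries the symbol Psme2b, so it was no member. That probe set lay between 10.40 and 10.53 at 5 days, between 10.34 and 10.48 at 42 days and between 10.36 and 10.70 in chow.

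Muscle fibre transcripts had list means of 14.40 to 14.50 at 5 days, 14.42 to 14.47 at 42 days and 14.34 to 14.51 in chow, and 0 of 12 changed in any comparison (3, 1 and 0 at an unadjusted p under 0.05). Markers of other tissues moved with the groups, and their part in the proteasome values was not tested except as a covariate where stated. Liver transcripts had list means of 7.72 to 9.20 at 5 days and 8.84 to 10.10 at 42 days, against 7.98 to 8.33 in chow, and 0 of 9 rose at 5 days and 7 of 9 at 42 days. Of 8 tendon markers, 0 rose at 5 days and 6 at 42 days, while endothelial markers had list means of 9.09 to 9.44 at 5 days, against 9.02 to 9.17 in chow, and 2 of 9 rose at 5 days. Of 3 brown adipocyte markers 1 fell at 5 days (median log2 fold change -1.47), and adipocyte markers had list means of 9.36 to 9.83 at 5 days and 9.21 to 10.15 at 42 days, against 9.88 to 10.94 in chow. Of 8 adipocyte markers 2 fell at 5 days and 0 at 42 days, and 1 of 2 erythroid markers fell at 5 days. Over all genes 1.60% rose and 2.20% fell at 5 days, and 2.12% rose and 3.44% fell at 42 days. The mean 3-prime minus 5-prime signal of control transcripts, a measure of RNA quality, was 0.932 to 1.10 at 5 days and 0.825 to 0.997 at 42 days, against 0.993 to 1.14 in chow. With that measure as a covariate 10 of 18193 genes passed at 42 days, so the liver and tendon calls did not all hold under it. In bulk muscle, fewer cells of a type and less RNA per cell cannot be told apart.

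Windows from 250 bases before to 50 bases after the annotated start are shown for 4 members. These stand for the member that passed the test in muscle (Psma1) and for an activator with a probe set that passed it (Psme4). Psmb5 and Psmb8 stand for a constitutive active-site subunit and its interferon-inducible counterpart. The sequences are from RefSeq on build GRCm38.p6, written 5′ to 3′ on the gene's strand. They lie at chr7:114276067-114276366 on the minus strand (Psma1), chr11:30771525-30771824 on the plus strand (Psme4), chr14:54617946-54618245 on the minus strand (Psmb5) and chr17:34197945-34198244 on the plus strand (Psmb8). Capitals mark matches on either strand to CCAAT (the CCAAT box) in Psma1, to TGACNNNGC (the antioxidant response element bound by the NRF factors that drive proteasome genes) in Psme4 and Psmb5, and to TTCNNNGAA (the gamma-activated site) in Psmb8.
Psma1: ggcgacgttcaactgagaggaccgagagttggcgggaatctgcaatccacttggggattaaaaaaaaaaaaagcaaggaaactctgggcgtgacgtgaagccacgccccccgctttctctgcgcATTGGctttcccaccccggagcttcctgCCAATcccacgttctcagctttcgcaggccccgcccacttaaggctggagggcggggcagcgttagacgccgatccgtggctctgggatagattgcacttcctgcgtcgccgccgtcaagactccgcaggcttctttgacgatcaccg
Psme4: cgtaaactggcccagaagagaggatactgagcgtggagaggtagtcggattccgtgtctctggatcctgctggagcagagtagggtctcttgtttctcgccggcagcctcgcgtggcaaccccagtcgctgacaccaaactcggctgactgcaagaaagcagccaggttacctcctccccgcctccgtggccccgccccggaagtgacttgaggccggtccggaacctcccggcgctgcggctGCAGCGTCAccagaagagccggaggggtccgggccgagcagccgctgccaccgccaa
Psmb5: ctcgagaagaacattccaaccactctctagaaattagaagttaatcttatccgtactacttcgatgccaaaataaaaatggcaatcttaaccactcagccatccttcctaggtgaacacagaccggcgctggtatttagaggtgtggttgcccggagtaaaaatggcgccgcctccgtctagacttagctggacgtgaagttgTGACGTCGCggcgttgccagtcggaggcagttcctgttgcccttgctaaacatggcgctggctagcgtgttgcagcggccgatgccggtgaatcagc
Psmb8: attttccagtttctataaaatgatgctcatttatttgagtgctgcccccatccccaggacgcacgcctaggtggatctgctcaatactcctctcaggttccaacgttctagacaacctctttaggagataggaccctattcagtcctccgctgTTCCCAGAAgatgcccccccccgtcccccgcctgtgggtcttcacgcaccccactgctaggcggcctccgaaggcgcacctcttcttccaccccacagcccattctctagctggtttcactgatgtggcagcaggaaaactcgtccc

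Of the 49 members, 41 matched the promoter table, with 44 windows. TGACNNNGC stood in 4 of 27 windows of constitutive 26S genes (14.8%, those of Psmb5, Psmb6, Psmc6 and Psmd12), against 12.4% of all 32851 windows. CCAAT stood in 37.0% of the 26S windows, against 37.4% of all windows. The interferon-stimulated response element stood in 7.41% of the 26S windows and 0 of 3 immunoproteasome windows, against 3.44% of all windows. TTCNNNGAA stood in 3.70% of the 26S windows and in 1 of 3 immunoproteasome windows, that of Psmb8, against 8.30% of all windows. These matches describe letters in short windows and say nothing of binding in muscle.

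After 5 days of high-fat diet, 0 of 49 members passed the test, against 3.80% of all genes (1.60% rose and 2.20% fell; limma, adjusted p under 0.05). At an unadjusted p under 0.05, 10 members were higher and 2 lower than in chow, 24.5% of the members, against 24.8% of all genes (10.6% higher and 14.1% lower). The groups did not overlap for 7 members, all higher, against 11.8% of all genes (5.29% higher and 6.47% lower). Of 2174 genes in the signal range of the constitutive 26S subunits (10.8 to 13.7), 301 were higher and 21 lower without overlap. At an unadjusted p under 0.05 (limma), 494 of those genes were higher and 48 lower. At an adjusted p under 0.1, 4 members passed, against 11.4% of all genes.

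After 42 days 1 member passed, the alpha-ring subunit Psma1, against 5.56% of all genes (2.12% rose and 3.44% fell). At an unadjusted p under 0.05, 4 members were higher and 4 lower than in chow, 16.3% of the members, against 21.9% of all genes (8.43% higher and 13.4% lower). The groups did not overlap for 4 members higher and 4 lower, against 13.9% of all genes (5.19% higher and 8.66% lower). Of the 2174 genes in the signal range of the 26S subunits, 86 rose and 141 fell, and 161 were higher and 384 lower without overlap. At an unadjusted p under 0.05 (limma), 216 of those genes were higher and 512 lower. At an adjusted p under 0.1, 3 members passed, against 10.3% of all genes. The comparisons at 5 and 42 days share the chow samples.

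Between 42 and 5 days 0 members passed, against 8.52% of all genes (2.75% rose and 5.77% fell). At an unadjusted p under 0.05, 0 members were higher and 9 lower at 42 days, 18.4% of the members, against 31.0% of all genes (13.7% higher and 17.2% lower). The groups did not overlap for 1 member higher and 9 lower, against 20.4% of all genes (7.17% higher and 13.3% lower). Of the 2174 genes in the signal range of the 26S subunits, 38 were higher and 732 lower without overlap. At an unadjusted p under 0.05 (limma), 45 of those genes were higher and 840 lower. At an adjusted p under 0.1, 5 members passed, against 20.2% of all genes.

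**Figure D1:**
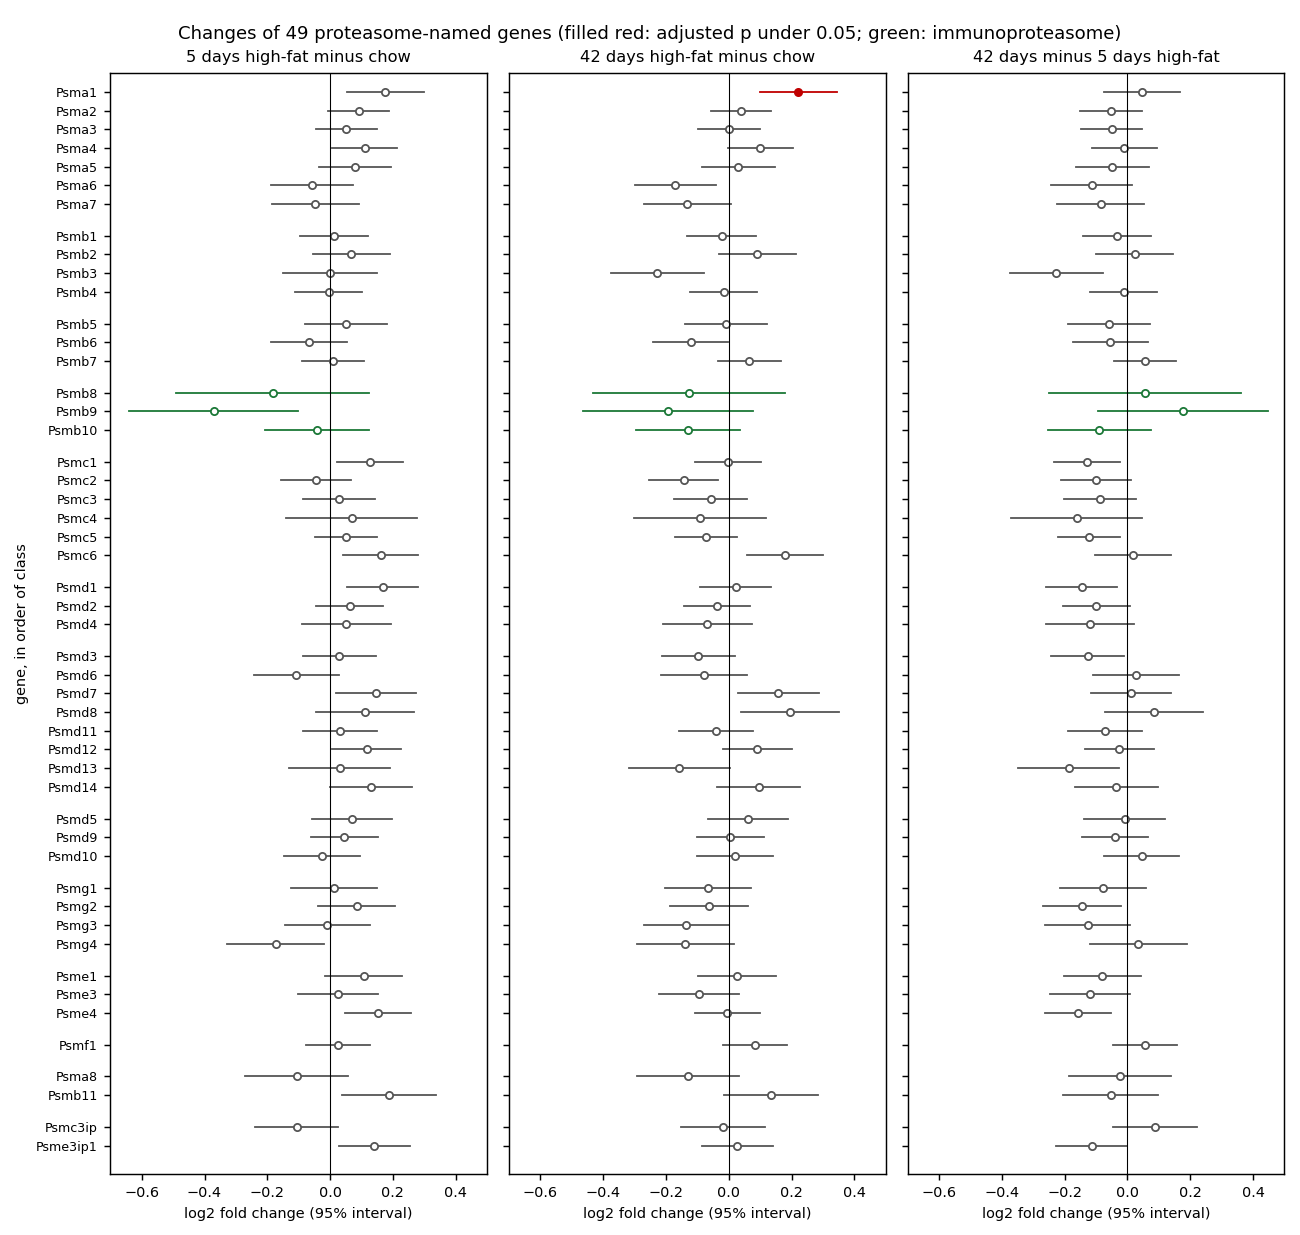
Log2 fold changes of the 49 members with 95% intervals (horizontal axis) in 3 comparisons, with genes in order of role from the alpha ring (top) to the interacting proteins (bottom). Psma1 at 42 days is the filled red point, Psmb8 and Psmb9 (green) have the widest intervals, and the members other than these lie between -0.23 and 0.20 at every comparison.

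The 31 constitutive subunits of the 26S proteasome comprised 14 of the core and 17 of the regulatory particle. Their log2 fold changes ran from -0.11 to 0.18 at 5 days and from -0.23 to 0.22 at 42 days against chow, and from -0.23 to 0.084 between 42 and 5 days. The 95% intervals of all 31 lay within 0.5 on the log2 scale of no change in each comparison, from -0.24 to 0.30 at 5 days, -0.38 to 0.35 at 42 days and -0.38 to 0.24 between the diet times. The same held for most genes: 2100, 2076 and 2117 of 2174 genes of like signal, and 17652, 17507 and 17671 of all 18193, had intervals within that bound in these comparisons. At 5 days 24 of 31 subunits (77.4%) were above chow, against 76.4% of genes of like signal. At 42 days 13 of 31 (41.9%) were above chow, against 35.4%, and 7 of 31 (22.6%) were higher at 42 than at 5 days, against 15.7%.

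The median log2 fold change of the 31 subunits was 0.051 at 5 days, against -0.010 over all genes. It was -0.0165 at 42 days, against -0.0125 over all genes, and -0.055 between 42 and 5 days, against 0.0078. The 2174 genes with mean signals in the subunits' own range, from 10.8 to 13.7, had medians of 0.063, -0.047 and -0.10 in the same order of comparisons. The subunits' median therefore lay closer to zero than that of genes of like signal in every comparison. After quantile normalization the subunits' medians were 0.0059, 0.0015 and 0.0063, and after cyclic loess -0.0033, 0.0058 and 0.017, so the sign turned under both scalings at 42 days and between the diet times, and under cyclic loess at 5 days.

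Sample by sample, the median deviation of the 31 subunits from their own 12-array means was -0.0030, 0.078, 0.068 and 0.030 at 5 days. It was -0.035, -0.025, -0.047 and 0.020 at 42 days, and 0.0036, -0.050, 0.037 and -0.066 in chow. The groups overlapped. In the sample with the highest median, replicate 2 at 5 days, 26 of 31 subunits were above their mean, and in the lowest, chow replicate 4, 6 of 31 were. The pooled SD within groups had a median of 0.066 over the 31 subunits, against 0.077 over genes of like signal, and ran from 0.036 (Psma2) to 0.16 (Psmc4).

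**Figure D2:**
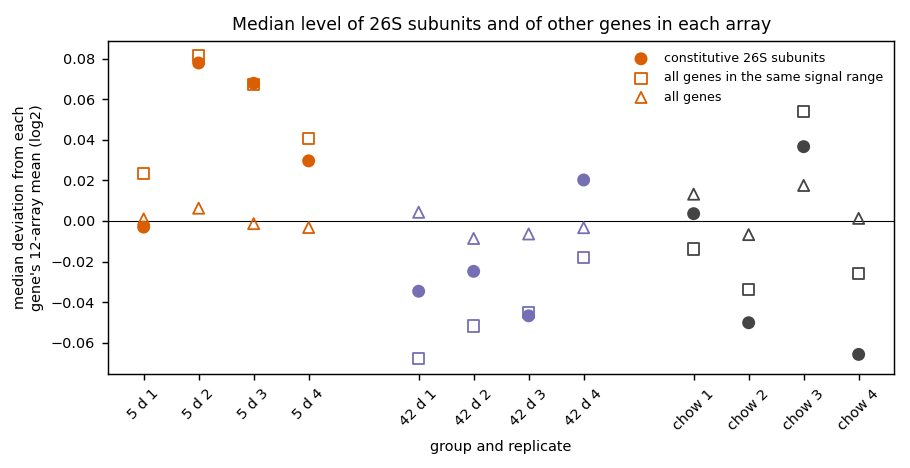
Median deviation (log2) of the 31 constitutive 26S subunits (filled circles), of all genes in the same signal range (squares) and of all genes (triangles) from each gene's 12-array mean, by sample. The subunits run from -0.066 in chow replicate 4 to 0.078 in replicate 2 at 5 days and lie within 0.05 of the squares in every sample.

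In the alpha ring, which gates the entrance of the core, Psma1 rose at 42 days. Its log2 signals were 11.77, 11.96, 11.79 and 11.76 at 5 days, 11.79, 11.90, 11.86 and 11.92 at 42 days, and 11.63, 11.65, 11.72 and 11.58 in chow. All 8 high-fat samples lay above all 4 chow samples. The log2 fold change at 42 days was 0.22 ± 0.057 (SE), a 1.17-fold rise (limma, adjusted p = 0.0374), and at 5 days 0.18 ± 0.057 (adjusted p = 0.0852). The call at 42 days was lost when any single 42-day or chow sample was left out (adjusted p 0.0510 to 0.104). With the 3-prime to 5-prime control difference as a covariate its log2 fold change was 0.15 (adjusted p = 0.460), and with the adipocyte marker mean 0.24 (adjusted p = 0.117).

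The other 3 probe sets of Psma1 had mean signals of 7.14, 4.71 and 4.67, low on the scale, and log2 fold changes of -0.16, 0.018 and 0.010 at 42 days. The first of them was at -0.19 ± 0.079 at 5 days (unadjusted p = 0.0313), opposite in sign to the probe set with the highest mean. The mean of the 4 probe sets moved by 0.022 at 42 days (adjusted p = 0.825). The rise therefore rests on 1 of 4 probe sets.

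Of the other alpha subunits, Psma4 had signals of 12.64, 12.68, 12.67 and 12.53 at 5 days, 12.66, 12.57, 12.61 and 12.63 at 42 days, and 12.55, 12.50, 12.51 and 12.51 in chow. The 42-day samples lay above all chow samples and the 5-day samples overlapped them, with a log2 fold change of 0.0995 ± 0.049 at 42 days (adjusted p = 0.250). Psma2 was 0.092 above chow at 5 days without overlap (adjusted p = 0.227) and 0.039 at 42 days. Psma6 had signals of 12.83, 12.79, 12.79 and 12.89 at 42 days, below all of 12.97, 12.90, 13.14 and 12.97 in chow, with a log2 fold change of -0.17 ± 0.061 (adjusted p = 0.115). Its second probe set with a mean signal over 8 differed in sign at 42 days. Psma3, Psma5 and Psma7 had log2 fold changes between -0.13 and 0.078 at both times.

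Among the beta subunits without an active site, Psmb3 came nearest to the threshold. Its signals were 11.86, 11.94, 12.02 and 11.89 at 5 days, 11.69, 11.76, 11.64 and 11.72 at 42 days, and 11.92, 11.89, 12.13 and 11.77 in chow. All 42-day samples lay below all others. The log2 fold change was -0.23 ± 0.070 at 42 days against chow (adjusted p = 0.0703) and -0.23 ± 0.070 between 42 and 5 days (adjusted p = 0.0562). A second probe set of Psmb3, with a mean signal of 11.5, was at 0.14 ± 0.068 at 42 days against chow and 0.0090 between the diet times, so both probe sets differed in sign. Psmb1, Psmb2 and Psmb4 had log2 fold changes of -0.0043 to 0.068 at 5 days and -0.023 to 0.091 at 42 days.

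The 3 constitutive active-site subunits gave 0 calls (0, 1 and 0 at an unadjusted p under 0.05 at 5 days, at 42 days and between the times). Psmb5, the chymotrypsin-like subunit, averaged 12.86 ± 0.048 at 5 days and 12.80 ± 0.058 at 42 days, against 12.81 ± 0.12 in chow (SD, n = 4 each). Psmb6, the caspase-like subunit, had signals of 12.02, 11.97, 11.96 and 12.02 at 42 days, below all of 12.13, 12.06, 12.24 and 12.03 in chow, with a log2 fold change of -0.12 ± 0.056 (adjusted p = 0.221). Psmb7, the trypsin-like subunit, had a log2 fold change of 0.066 ± 0.046 at 42 days (adjusted p = 0.444). Its 42-day samples, 13.76, 13.70, 13.73 and 13.77, lay above the 5-day samples, 13.68, 13.68, 13.69 and 13.68, with a log2 fold change of 0.057 between them (adjusted p = 0.412).

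Of the 6 ATPases that form the base ring and unfold substrates, Psmc6 had the highest fold change. Its signals were 11.60, 11.81, 11.71 and 11.71 at 5 days, 11.69, 11.66, 11.73 and 11.81 at 42 days, and 11.60, 11.48, 11.60 and 11.50 in chow. The samples of both diet times lay above all chow samples, with log2 fold changes of 0.16 ± 0.056 at 5 days (adjusted p = 0.102) and 0.18 ± 0.056 at 42 days (adjusted p = 0.0781). The other Psmc6 probe sets with mean signals over 8 were at 0.0067 and 0.058 at 5 days and at -0.088 and 0.058 at 42 days. Psmc2 was below chow in all 42-day samples, at -0.14 ± 0.052 (adjusted p = 0.120). Its second probe set had the opposite sign.

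Psmc1 was above all chow samples at 5 days, by 0.13 ± 0.049 (adjusted p = 0.132), and Psmc1 and Psmc5 were at -0.13 (adjusted p = 0.0992) and -0.12 (adjusted p = 0.0962) between 42 and 5 days. Psmc3 and Psmc4 had log2 fold changes of 0.029 and 0.069 at 5 days and -0.058 and -0.092 at 42 days. Psmc4 varied most within groups among the 31 subunits, with signals of 11.91, 11.94, 12.20 and 11.90 at 5 days, 11.89, 11.65, 11.93 and 11.85 at 42 days, and 11.75, 12.12, 11.74 and 12.07 in chow.

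Psmd1, the largest scaffold of the base, had signals of 12.09, 12.23, 12.07 and 12.09 at 5 days, 11.88, 11.96, 12.01 and 12.05 at 42 days, and 11.94, 11.96, 11.94 and 11.98 in chow. The 5-day samples lay above all samples of the other 2 groups. The log2 fold change was 0.17 ± 0.053 at 5 days against chow (adjusted p = 0.0796) and -0.15 ± 0.053 between 42 and 5 days (adjusted p = 0.0871). Psmd2, the other scaffold, and Psmd4, a ubiquitin receptor, had log2 fold changes of 0.062 and 0.052 at 5 days and -0.037 and -0.068 at 42 days. Other Psmd4 probe sets, with mean signals of 12.2 and 9.59, were at 0.13 and -0.032 at 5 days. At 42 days they were at 0.079 and 0.13, opposite in sign to the chosen one.

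In the lid, which holds the deubiquitinase Psmd14, 0 of 8 subunits passed the test in any of the 3 comparisons, and 2 had an unadjusted p under 0.05 in each. Psmd7, the partner of Psmd14, was at 0.15 ± 0.060 at 5 days (adjusted p = 0.151) and 0.16 ± 0.060 at 42 days (adjusted p = 0.140), and Psmd8 at 0.11 ± 0.073 (adjusted p = 0.358) and 0.195 ± 0.073 (adjusted p = 0.132). Their high-fat samples overlapped chow. Psmd14 itself was at 0.13 ± 0.062 at 5 days (adjusted p = 0.206) and 0.095 at 42 days. Psmd12 lay above all chow samples at 5 days, with 12.33, 12.48, 12.33 and 12.38 against 12.28, 12.25, 12.32 and 12.21, a log2 fold change of 0.12 ± 0.051 (adjusted p = 0.176).

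Psmd13 was at -0.19 ± 0.076 between 42 and 5 days (adjusted p = 0.112), with signals of 10.70, 10.74, 10.67 and 10.82 at 42 days, below all of 10.83, 10.92, 10.97 and 10.95 at 5 days. Psmd6 was at -0.11 ± 0.064 at 5 days (adjusted p = 0.311) and Psmd3 at -0.097 at 42 days. A second Psmd6 probe set, with a mean signal of 12.85, was at 0.061 at 5 days, opposite in sign. At 42 days it was at 0.095 and the chosen one at -0.079. Psmd11, known as a limiting subunit for 26S assembly in other cells, averaged 13.25 ± 0.046 at 5 days and 13.18 ± 0.085 at 42 days, against 13.22 ± 0.060 in chow. It was read by 8 probe sets. One of them, with a mean signal of 11.1, was at 0.22 ± 0.062 at 5 days (adjusted p = 0.0592) and 0.19 ± 0.062 at 42 days (adjusted p = 0.0590), while the other 3 with means over 8 lay between 0.0325 and 0.0385 at 5 days and between -0.10 and -0.040 at 42 days. A Psmd11 probe set other than the chosen one passed at 42 days under some alternatives, such as quantile normalization and cyclic loess.

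The assembly chaperones gave 0 calls, with Psmg4 at 5 days and Psmg2 between the diet times at an unadjusted p under 0.05. Psmg1 to Psmg4, which build the alpha ring, had log2 fold changes of 0.012, 0.084, -0.0085 and -0.17 at 5 days and of -0.067, -0.062, -0.13 and -0.14 at 42 days. The smallest adjusted p among them was 0.158 at 5 days (Psmg4) and 0.229 at 42 days (Psmg3). Another Psmg2 probe set, with a mean signal of 10.3, was at 0.19 ± 0.066 at 42 days (limma, adjusted p = 0.0836), opposite in sign to the chosen one. Psmg4 had signals of 8.41, 8.42, 8.50 and 8.53 at 5 days and 8.49, 8.48, 8.44 and 8.60 at 42 days, against 8.67, 8.54, 8.86 and 8.49 in chow. The groups overlapped. Psmd5, Psmd9 and Psmd10, chaperones of the 19S base, lay between -0.026 and 0.071 at 5 days and between 0.0053 and 0.062 at 42 days.

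The inhibitor Psmf1 (PI31) had signals of 9.63, 9.69, 9.63 and 9.63 at 42 days, above all of 9.58, 9.57, 9.58 and 9.52 in chow, a log2 fold change of 0.082 ± 0.048 (adjusted p = 0.346). Its 5-day samples overlapped both groups. A second Psmf1 probe set, with a mean signal of 8.23, had 8.20, 7.93, 8.13 and 8.22 at 42 days, below all of 8.34, 8.24, 8.36 and 8.34 in chow, a log2 fold change of -0.20 ± 0.069 (adjusted p = 0.0741), opposite in sign. It passed when the 40% dimmest probe sets were left out. Psma8 and Psmb11, whose mean signals were 6.33 and 6.50, had log2 fold changes of -0.11 and 0.19 at 5 days and -0.13 and 0.13 at 42 days, with adjusted p of 0.122 or more. The interacting proteins Psmc3ip and Psme3ip1 were at -0.11 and 0.14 at 5 days and at -0.019 and 0.027 at 42 days.

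Among the activators that can cap the core in place of the 19S particle, Psme1 of PA28 was at 0.11 ± 0.058 at 5 days (adjusted p = 0.266) and 0.027 at 42 days, and Psme3 (PA28 gamma) at 0.026 and -0.094. A second Psme3 probe set, with a mean signal of 9.79, lay above all chow samples at 5 days, at 0.19 ± 0.058 (limma, adjusted p = 0.0733). At 42 days that probe set was at 0.10, opposite in sign to the chosen one. Psme4 (PA200), read by probe set A with the highest mean, had signals of 13.54, 13.49, 13.54 and 13.45 at 5 days, 13.31, 13.37, 13.34 and 13.37 at 42 days, and 13.34, 13.27, 13.40 and 13.41 in chow. The 5-day samples lay above all others, by 0.15 ± 0.049 over chow (adjusted p = 0.0830), and the 42-day samples were at -0.16 ± 0.049 against 5 days (adjusted p = 0.0582). Neither passed the test.

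Another probe set of Psme4, here called C, rose at both times when every probe set was tested. Its signals were 12.70, 12.75, 12.65 and 12.78 at 5 days, 12.75, 12.83, 12.79 and 12.86 at 42 days, and 12.47, 12.28, 12.28 and 12.32 in chow. All 8 high-fat samples lay above all chow samples. The log2 fold change was 0.39 ± 0.057 at 5 days, a 1.31-fold rise (limma, adjusted p = 0.0186 over all probe sets), and 0.47 ± 0.057 at 42 days, a 1.38-fold rise (adjusted p = 0.000333). Without chow replicate 3 or replicate 2 of the 5-day group the adjusted p at 5 days was 0.0519 and 0.0719. With the 8 arrays compared alone it was 0.0637, and with the adipocyte marker covariate 0.0718. At 42 days it stayed between 0.00013 and 0.00235 without any single sample and was 0.0884 with the 3-prime to 5-prime covariate, where the log2 fold change was 0.41.

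Psme4 probe set B, whose mean lay between those of A and C, was at 0.19 ± 0.052 at 5 days (adjusted p = 0.0519) and 0.11 ± 0.052 at 42 days (adjusted p = 0.228). Within each sample, the log2 signal of C minus that of A was -0.89 to -0.66 at 5 days and -0.56 to -0.51 at 42 days, against -1.12 to -0.88 in chow. The signals of these probe sets of 1 gene thus changed unequally, and the stretch of the transcript each one reads was not analysed here.

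**Figure D3:**
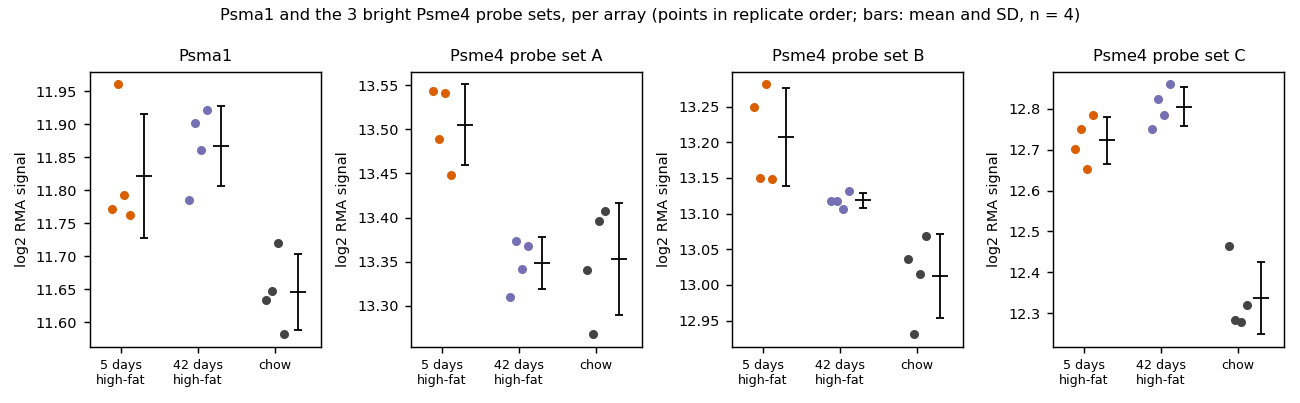
Log2 RMA signal (vertical axis) of Psma1 and of the 3 Psme4 probe sets with mean signals over 12, by sample, for 5 days, 42 days and chow (points, 4 samples a group; bars, mean and SD). For probe set C all high-fat samples lie above chow, while for probe set A the 42-day samples overlap chow.

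Over all members, 4 of the 54 other probe sets passed the test at 5 days (2 rose and 2 fell, against 3.59% of all probe sets, 1.94% risen and 1.65% fallen). At 42 days 2 passed, both risen, against 10.6% of all probe sets (5.86% risen and 4.70% fallen), and between the diet times 1 passed, a fall, against 7.80% (2.97% risen and 4.84% fallen). Beside Psme4 probe set C, the 2 that rose at 5 and at 42 days included a Psme3 probe set with a mean signal of 6.90, with 6.92, 6.97, 7.14 and 7.19 at 5 days and 7.11, 7.14, 6.87 and 6.95 at 42 days, against 6.52, 6.94, 6.51 and 6.54 in chow. Chow replicate 2 overlapped the high-fat samples. Its log2 fold changes were 0.43 ± 0.098 at 5 days (adjusted p = 0.0343) and 0.39 ± 0.098 at 42 days (adjusted p = 0.0199). The 2 that fell at 5 days belonged to Psma5 (-0.23, adjusted p = 0.0448) and Psmd2 (-0.26, adjusted p = 0.0463), with mean signals of 6.09 and 4.74, while the probe sets of these genes with the highest mean were at 0.078 and 0.062.

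Probe sets of 1 gene often disagreed in sign. Of the 54 other probe sets, 23 had the sign of the gene's chosen probe set at 5 days, 24 at 42 days and 26 between the diet times. Among the 25 with mean signals of 8 or more the counts were 15, 10 and 16. In 18 genes with at least 2 such probe sets, both signs occurred in 8 genes at 5 days and in 12 genes at 42 days. Probe sets of opposite sign, each at an unadjusted p under 0.05, were seen in Psma1 at 5 days and in Psmd11, Psmd13 and Psmg2 between the diet times.

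**Figure D4:**
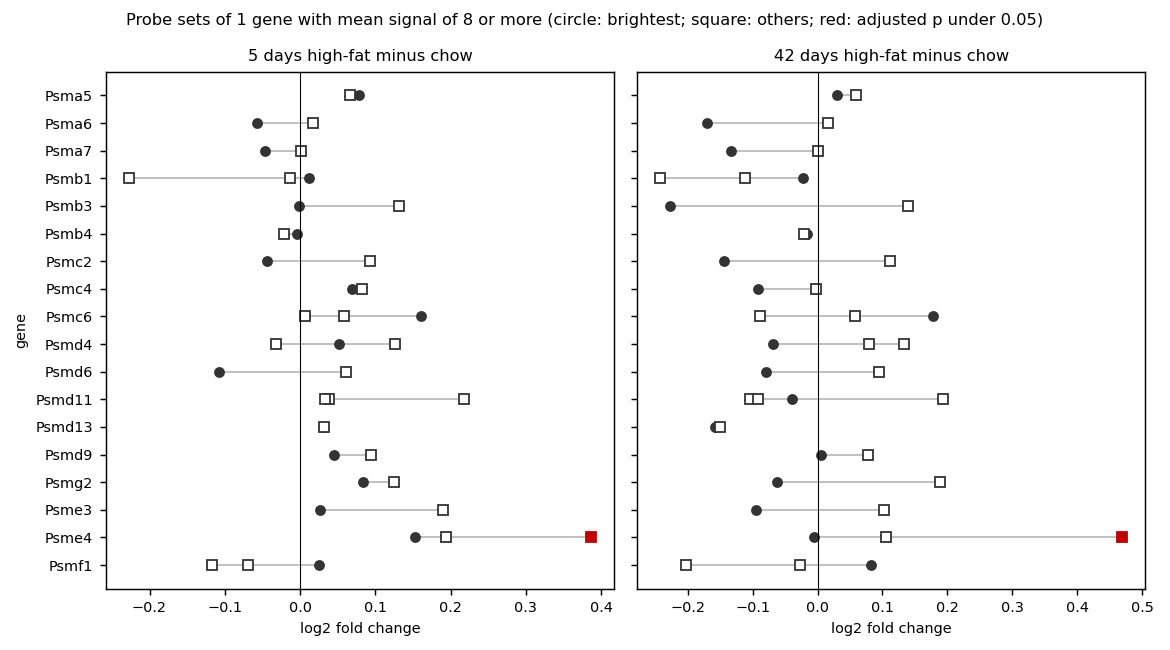
Log2 fold changes (horizontal axis) of all probe sets with mean signals of 8 or more in the 18 members that had at least 2, at 5 and 42 days against chow. Probe sets of 1 gene are joined by a line, which crosses zero in 8 genes at 5 days and 12 genes at 42 days, and Psme4 probe set C (red) is the only one of these that passed the test.

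The immunoproteasome subunits Psmb8, Psmb9 and Psmb10, which interferon induces, were measured at mean signals of 8.13, 7.91 and 9.18, and none passed the test. Psmb8 had signals of 7.96, 8.16, 8.16 and 7.91 at 5 days, 8.09, 8.07, 8.01 and 8.24 at 42 days, and 7.98, 7.94, 8.19 and 8.81 in chow. Psmb9 had 7.83, 7.73, 7.75 and 7.60 at 5 days, 7.92, 7.81, 7.84 and 8.04 at 42 days, and 7.94, 7.81, 8.04 and 8.60 in chow. Chow replicate 4 was the highest sample for both genes and for Psmb10, at 9.42, and the groups overlapped.

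Log2 fold changes at 5 days were -0.18 ± 0.14 for Psmb8 (adjusted p = 0.448), -0.37 ± 0.13 for Psmb9 (adjusted p = 0.0965) and -0.041 ± 0.077 for Psmb10 (adjusted p = 0.772). At 42 days they were -0.13, -0.19 and -0.13, with adjusted p of 0.353 or more. Without chow replicate 4 the 5-day log2 fold changes were 0.0099, -0.20 (adjusted p = 0.137) and 0.019, and the 42-day values 0.067, -0.025 and -0.070. Psmb8 at both times and Psmb10 at 5 days thus turned sign without that sample, and the SD of Psmb8 in chow was 0.40 with it and 0.14 without it.

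The difference between each inducible subunit and the constitutive subunit it replaces was taken within a sample and compared between groups. Psmb9 minus Psmb6 differed by -0.30 between 5 days and chow (exact two-sided permutation p = 0.171, adjusted p = 0.385 over 9 tests). Psmb8 minus Psmb5 differed by -0.23 at 5 days (exact permutation p = 0.571) and Psmb10 minus Psmb7 by -0.196 at 42 days (exact permutation p = 0.0857). None of these 9 differences passed the test: the lowest adjusted p was 0.257, and 70 splits allow no p below 0.0286. Over 9 tests, 1 difference alone could not pass even at that p. These tests could thus hardly show a difference, and no conclusion is drawn from them.

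The interferon response list had sample means of 8.28 to 8.34 at 5 days and 8.29 to 8.35 at 42 days, against 8.30, 8.30, 8.34 and 8.75 in chow, where the highest was again replicate 4. At 5 days 1 of its 16 measured genes fell, Oas1a at -0.28 ± 0.053 (adjusted p = 0.0250), and 0 passed at 42 days (2 at an unadjusted p under 0.05). The class I antigen processing list averaged 10.02 to 10.11 at 5 days and 10.04 to 10.17 at 42 days, against 9.98 to 10.39 in chow, and 1 of 12 genes rose at 42 days, the chaperone Pdia3 (0.48 ± 0.10, adjusted p = 0.0193). Leukocyte markers averaged 8.41 to 8.47 at 5 days and 8.47 to 8.57 at 42 days, against 8.45 to 8.55 in chow, where replicate 4, at 8.55, lay within the range of the 42-day samples. Of 21 leukocyte markers, Adgre1 fell at 5 days (-0.23, adjusted p = 0.0469), Lyz2 rose at 42 days (0.35, adjusted p = 0.0292) and Cd3e rose at 42 days against 5 days (0.23, adjusted p = 0.0268), and their part in the immunoproteasome values was not tested. That sample also had the highest adipocyte marker mean, 10.94. Leaving out 1 sample lost the call of Oas1a in 2 of 12 omissions, Pdia3 in 2, Adgre1 in 11, Lyz2 in 5 and Cd3e in 4. Over all genes 2.20% fell at 5 days, 2.12% rose at 42 days and 2.75% rose at 42 against 5 days. With the 3-prime to 5-prime covariate 0 genes passed between the diet times, so the call of Cd3e was lost there too.

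**Figure D5:**
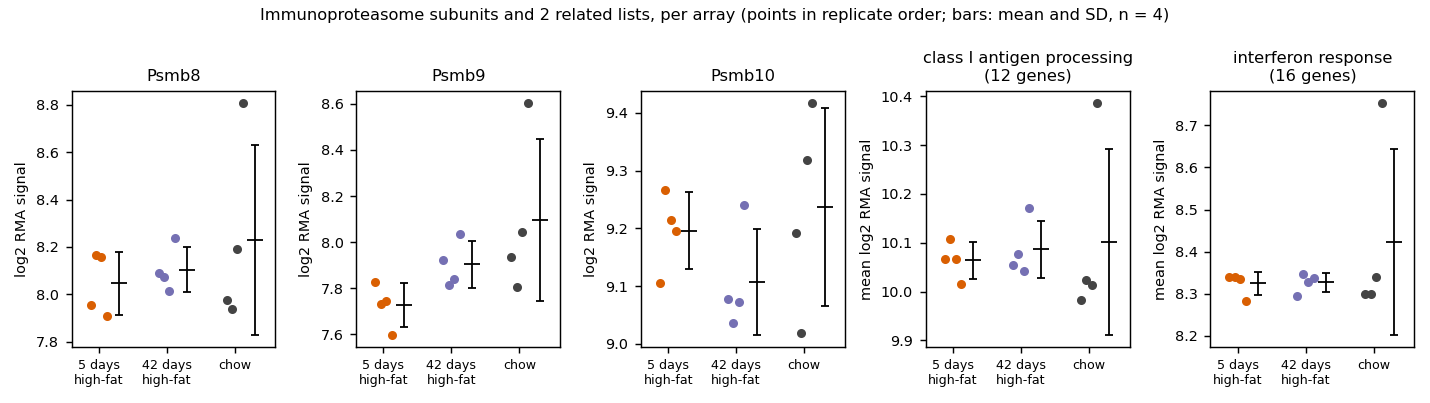
Log2 RMA signal (vertical axis) of Psmb8, Psmb9 and Psmb10 and the mean signal of the class I antigen processing and interferon response lists by sample, for 5 days, 42 days and chow (points, 4 samples a group; bars, mean and SD). Chow replicate 4 is the highest point in all 5 panels, 8.81 for Psmb8 and 8.60 for Psmb9, and the groups overlap.

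Of 8 measured proteasome genes outside the symbol rule, such as Pomp, which matures the core, and the proteasome-bound deubiquitinases Usp14 and Uchl5, 0 passed the test in any of the 3 comparisons, with 3 at an unadjusted p under 0.05 in each. Their median log2 fold changes were 0.037 at 5 days, 0.030 at 42 days and -0.070 between the times. The smallest p was that of Uchl5 at 5 days, at 0.21 ± 0.058 (adjusted p = 0.0543).

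Of 9 measured regulators of proteasome genes, all 9 were above chow at 5 days with 0 calls (5 at an unadjusted p under 0.05), 2 were above chow at 42 days with 0 calls (1 at an unadjusted p under 0.05), and all 9 were lower at 42 than at 5 days with 3 calls, against 8.52% of all genes. Of the genes of like signal to the 26S subunits, 1831 of 2174 were lower in that comparison. At 5 days 76.4% of genes of like signal were above chow, and 24.9% had an unadjusted p under 0.05 (limma) in either direction. The 3 regulators that fell between the diet times were Keap1, which targets NRF2 for degradation (-0.24 ± 0.055, adjusted p = 0.0243), Maff, a small partner of the NRF factors (-0.37 ± 0.088, adjusted p = 0.0273), and Bach1, a repressor that competes with them (-0.45 ± 0.097, adjusted p = 0.0223). Nfe2l1, the activator that raises proteasome genes when proteasome activity is short, averaged 12.30 ± 0.077 at 5 days and 12.17 ± 0.080 at 42 days, against 12.19 ± 0.094 in chow, with log2 fold changes of 0.11 (adjusted p = 0.304) and -0.029 (adjusted p = 0.839). Nfe2l2, which encodes NRF2, was at 0.23 ± 0.073 at 5 days (adjusted p = 0.0768).

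Upstream of the proteasome, 15 ubiquitin, E1 and E2 genes gave 0 calls at 5 days (3 at an unadjusted p under 0.05) and 3 at 42 days, against 3.80% and 5.56% of all genes. The ubiquitin-conjugating enzymes Ube2b (0.24 ± 0.047, adjusted p = 0.0145) and Ube2d3 (0.22 ± 0.059, adjusted p = 0.0451) rose and Ube2r2 fell (-0.28 ± 0.054, adjusted p = 0.0121). Between 42 and 5 days Ube2g2 (-0.22, adjusted p = 0.0316) and Ube2r2 (-0.20, adjusted p = 0.0398) fell, where 5.77% of all genes fell. Of 12 genes of ubiquitin shuttles and p97, Ubxn4 fell at 42 days against chow (-0.22 ± 0.062, adjusted p = 0.0487) and against 5 days (-0.25, adjusted p = 0.0303), where 3.44% and 5.77% of all genes fell.

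Among 11 muscle ubiquitin ligases, 0 passed at 5 days (1 at an unadjusted p under 0.05), against 3.80% of all genes, and Cblb (-0.23 ± 0.053, adjusted p = 0.0274) and Ube4b (-0.22 ± 0.055, adjusted p = 0.0305) fell at 42 days, where 3.44% of all genes fell. Between 42 and 5 days Cblb, Ube4b and Mul1 fell, by 0.19, 0.29 and 0.23 on the log2 scale (adjusted p = 0.0412, 0.0172 and 0.0498). In that comparison 5.77% of all genes fell, as did 287 of the 2174 genes of like signal to the 26S subunits. The atrophy ligases did not pass the test: Fbxo32 (atrogin-1) was at 0.11 ± 0.16 at 5 days (adjusted p = 0.679) and -0.29 ± 0.16 at 42 days (adjusted p = 0.310), and Trim63 (MuRF1) at 0.22 ± 0.10 (adjusted p = 0.206) and 0.045 ± 0.10 (adjusted p = 0.855).

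Without replicate 1 of the 42-day group, or with the 3-prime to 5-prime covariate, 0 of 18193 genes passed between 42 and 5 days, so the calls of Keap1, Maff, Bach1, Ube2g2, Ube2r2, Ubxn4, Cblb, Ube4b and Mul1 in that comparison were lost. Without replicate 2 of the 5-day group all 9 were lost too. At 42 days against chow, Ube2r2 passed with each single sample left out in turn (adjusted p of at most 0.0394) and Ube2b was lost in 1 of 12 omissions (without replicate 4 of the 42-day group, adjusted p = 0.0505). Ube2d3, Ubxn4, Cblb and Ube4b were lost in 9, 11, 6 and 5 of 12, and all 6 were lost with the 3-prime to 5-prime or the adipocyte covariate.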

How the data were processed

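Labelled cRNA from skeletal muscle was hybridised to 12 Affymetrix arrays, 4 a group. The deposited values are log2 signals per probe set made by the authors with RMA, per the submitters' processing notes, which name no version; the log2 scale was read from the values (3.67 to 15.46). RMA gives no detection call, so low signals may hold background. Precision is set by the number of arrays, since no reads were counted. Of 45098 probe sets, 34945 carried 1 symbol, and these gave 18193 genes, each read from the probe set with the highest mean. Group means were fitted to all 12 arrays with limma 3.58.1 in R 4.3.3, and each comparison's p-values received the Benjamini-Hochberg adjustment across every gene (threshold 0.05, two-sided). Fits were tested on simulated data. Named members are those past the test, the 5 with the smallest p in each direction, active-site subunits, activators, Psmf1, Psmg1 to Psmg4, members with names of other genes, and probe sets in conflict; Psma2, Psmd12 and others were added by their values or to complete a class. From the lists of proteasome, ubiquitin, antigen processing, interferon and leukocyte genes, those past the test, or else the one with the smallest p, are named. Nfe2l1, Nfe2l2, Fbxo32 and Trim63 were added. Genes of the other tissue marker lists were counted and not named. Members and lists were chosen with earlier results of these data known. Deviations from the group means correlated over 0.1 in 3 of 12 same-numbered pairs, all between replicate 1 of the groups (0.208, 0.215 and 0.221). The other pairs ran from -0.176 to 0.099, and the main fit used no pairing. Alternatives covered normalization, probe set choice, filters, priors, weights, covariates, a replicate block and leaving out each array.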

Additional observations from a re-analysis of the deposited data

Results flagged for a closer look

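In groups of 4, a sample far from the other 3 was looked for by Dixon's test in each of the 147 combinations of member and group, and 8 were found; chance gives about 1 in 20. At 5 days, replicate 3 was high for Psma6 (13.066, the others 12.887 to 12.908), Psmc4 (12.204, the others 11.902 to 11.936) and Psmg2 (11.243, the others 10.997 to 11.024). Replicate 2 of that group was high for Psma1 (11.96, the others 11.762 to 11.792) and Psmd1 (12.229, the others 12.071 to 12.091), and replicate 1 was low for Psmc5 (12.157, the others 12.191 to 12.194). At 42 days, replicate 1 was low for Psmc2 (12.729, the others 12.766 to 12.773) and replicate 2 high for Psmf1 (9.685, the others 9.625 to 9.630).

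A difference between the diet times passed the test for 1 other probe set of Psme4, with a mean signal of 4.95 and a log2 fold change of -0.2258 between 42 and 5 days (limma, adjusted p = 0.0477).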

How the results depend on the processing

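The number of members past the test at 5 days was 0. It was 4 of 49 with arrays centred on their median (Psma1, Psmc6, Psmd1 and Psme4 rose; 5.93% of all genes passed), 1 with probe sets averaged per gene (3.83%), 4 with the most variable probe set (4.98%), 2 with a trended and robust prior (4.79%) and 4 at an adjusted p under 0.1 (11.4%), and 0 to 0 without any single array. At 42 days it was 1, against 2 after quantile normalization (6.52%), 2 after cyclic loess (5.60%), 3 without the 40% dimmest genes (11.7%), 0 with the mean of probe sets (4.99%), 2 with the most variable probe set (13.9%), 3 with the trended and robust prior (7.02%), 0 with the 3-prime to 5-prime covariate (0.0550%) or the adipocyte covariate (0.649%), 3 at an adjusted p under 0.1 (10.3%) and 0 to 1 without single arrays; without chow replicate 4 the 1 call was Psmb3. Between 42 and 5 days it was 0, against 7 after centring (all fell; 16.3%), 2 without the 40% dimmest genes (19.1%), 2 with array weights (11.1%), 2 with the trended and robust prior (1993 of 18193 genes), 1 with the 8 arrays compared alone (8.93%), 1 with the adipocyte covariate (9.98%), 5 at an adjusted p under 0.1 (20.2%) and 0 to 2 without single arrays (2 without chow replicate 3). Over all genes, leaving out 1 array moved the number called between 6 and 790 at 5 days (6 without replicate 2 of the 5-day group), between 228 and 1079 at 42 days (228 without chow replicate 3) and between 0 and 1972 between the diet times (0 without replicate 1 of the 42-day group). The replicate block left the counts at 0, 1 and 0, and changed no call among the members. The median of the 26S subunits was 0.0059 at 5 days after quantile normalization, 0.0963 after centring and -0.0033 after cyclic loess. Between the diet times these were 0.0063, -0.1047 and 0.0171. Without single arrays it ran from 0.0379 to 0.0687 at 5 days, from -0.0418 to 0.0037 at 42 days and from -0.0743 to -0.0409 between the diet times. With the most variable probe set, Psma1 at 42 days was at -0.16, Psme3 at 0.39 and Psme4 at 0.47, since other probe sets then stand for these genes.

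For the other probe sets, 4 calls at 5 days were 2 after quantile normalization, 7 after centring, 2 after cyclic loess, 1 with array weights, 0 with 8 arrays alone, 2 with the 3-prime to 5-prime covariate, 0 with the adipocyte covariate and 0 to 7 without single arrays (7 without replicate 1 of the 5-day group, 0 without chow replicate 3 or replicate 2 of the 5-day group). At 5 days they were also 3 without the 40% dimmest probe sets and 5 with the trended and robust prior. The 2 calls at 42 days were 3 after quantile normalization or cyclic loess, without the 40% dimmest probe sets, with array weights or with the trended and robust prior. A Psmd11 probe set was among the 3 each time. The calls at 42 days were 0 with the 3-prime to 5-prime covariate, 1 with the adipocyte covariate and 1 to 4 without single arrays (4 without chow replicate 1). The 1 call between the diet times was 2 after quantile normalization, 3 after centring, 2 after cyclic loess, 0 without the 40% dimmest probe sets, 0 with the 3-prime to 5-prime covariate and 0 to 2 without single arrays. With the replicate block they were 5, 2 and 1, the last of Psmg2 in place of Psme4. Beyond the construction of these fits, the cause was not tested. No immunoproteasome pair passed the test under any alternative run, but 1 pair alone could not have passed. The 40% filter was not run for these pairs because Psmb9 falls under it. Alternatives for other probe sets and the omission of chow replicate 4 for the immunoproteasome were chosen after seeing the data. Low signals and 4 arrays a group limit what could be detected.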
